A study of Homo sapiens with 38 samples.

Results

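The mRNAs described here encode proteins of the large subunit of the cytosolic ribosome. They were taken as the protein-coding features of the deposited count table whose Ensembl gene ID belongs to a fixed list of 44 genes, from RPL3 to RPLP2, and all 44 were found among 90127 features, of which 23257 are protein-coding. The study sequenced small RNA of 2 human acute myeloid leukaemia cell lines, KG1a and HL60, both labelled wild type, and of their extracellular vesicles, separated into a large (lEV) and a small (sEV) kind. Each source was sequenced as total RNA and after rPAL, in which periodate opens sialic acids so that a biotin probe can be attached and RNA that bears sialylated glycans can be pulled down. This gives 12 groups of libraries, with n = 4 in KG1a cell total and KG1a cell rPAL and n = 3 in every other group. Cells were grown in RPMI-1640 with 10% fetal bovine serum, penicillin and streptomycin, and vesicles came from cells kept without serum for 2 days, so a vesicle group differs from its cells by culture conditions too. Whether replicates came from separate cultures is not in the labels, and p-values therefore measure the spread between these samples, which may be technical.

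Large-subunit proteins are made from some of the most actively translated mRNAs of a cell. Most of these mRNAs start with a terminal oligopyrimidine (TOP) tract, a C followed by further pyrimidines, through which their translation is switched on and off together by growth signals. Many of the genes also carry small nucleolar RNAs (snoRNAs) in their introns, which guide the chemical modification of ribosomal RNA and are cut out of the host's spliced introns. In leukaemia lines, which divide fast, these mRNAs are among the abundant transcripts. A small RNA library holds short fragments of them rather than whole mRNAs, since fragments were selected by size on a gel per the labels' protocols.

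Sequencing depth was 5498168 to 14892937 counts for total RNA and 2380745 to 15532758 for rPAL. A level of 3 counts corresponded to 0.201 to 0.546 CPM, the count scaled to the library total, in total libraries and 0.193 to 1.26 CPM in rPAL libraries. The lines could be told apart by their markers in total RNA. The summed level of CD34, KIT, MEIS1 and ERG was 2.69 to 38.3 CPM in KG1a libraries and 0.0740 to 1.08 CPM in HL60 libraries, and that of the granule genes MPO, ELANE, AZU1, PRTN3 and CTSG was 0 to 1.27 CPM in KG1a and 2.80 to 8.36 CPM in HL60, where ELANE was at 0 in cells and lEV. Of the markers of other cell types, B cell genes summed to at most 1.96 CPM, liver and serum protein genes to at most 1.93 CPM and erythroid genes to at most 13.004 CPM in any library, while T cell genes (CD3D, CD3E, CD2 and TRAC) reached 81.1 CPM in replicate 1 of HL60 sEV total RNA. In bulk libraries, fewer cells or vesicles of a type and less RNA in each cannot be told apart.

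Of the 44 genes, 18 hold an annotated snoRNA gene inside them on the same strand, 39 snoRNA genes in all. RPL4 holds the most, 4 named box C/D snoRNAs and an unnamed entry that overlaps SNORD18B, and RPL7A, RPL13A and RPL23A hold 4 box C/D snoRNAs each. The box C/D snoRNAs of RPL4 and SNORD36C of RPL7A, the one with the most counts of its own, are printed because RPL4 and RPL7A are the hosts on which several results below turn. They are given 5′ to 3′ as RNA genes of GENCODE 29 on GRCh38, with the box C core (TGATG) and box D (CTGA) in capitals.
SNORD18C, chr15:66501250-66501318, minus strand: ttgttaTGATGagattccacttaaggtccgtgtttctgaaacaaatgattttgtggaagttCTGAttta
SNORD18B, chr15:66502020-66502091, minus strand: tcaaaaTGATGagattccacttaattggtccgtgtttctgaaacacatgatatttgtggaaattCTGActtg
SNORD16, chr15:66502812-66502910, minus strand: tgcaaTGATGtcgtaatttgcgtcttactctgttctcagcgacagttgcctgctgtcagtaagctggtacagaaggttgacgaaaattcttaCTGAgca
SNORD18A, chr15:66503243-66503314, minus strand: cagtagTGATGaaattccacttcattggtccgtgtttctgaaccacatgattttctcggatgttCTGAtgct
SNORD36C, chr9:133350847-133350912, plus strand: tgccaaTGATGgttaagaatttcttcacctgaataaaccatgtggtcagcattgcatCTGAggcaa

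Both letter groups, read on the snoRNA's own strand, lay within 15 bases of the respective ends in 220 of 288 annotated SNORD genes (76.4%) and in 0 of 149 SNORA genes. Among the deposited counts, 33 of the 39 snoRNA genes inside members were listed at 0 counts over all 38 libraries. The 6 with a count were SNORD36C with 1347, SNORA65 of RPL12 with 490, SNORA3B of RPL27A with 280, SNORA66 of RPL5 with 176, SNORD83A of RPL3 with 167 and SNORD72 of RPL37 with 1. The 44 members held 206332 counts. How many of these came from snoRNA reads that overlap a host was not tested.

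Starts of transcription were read from RefSeq promoters (GRCh38.p14), which matched 37 of the 44 members. A start with C inside a run of at least 5 pyrimidines, the form of a TOP tract, was found in 24 of these 37 (64.9%) and in 1104 of 27305 RefSeq promoters (4.04%). The starts of the members on which the results below turn are printed 5′ to 3′ with 12 bases before and 12 bases from the annotated start, the pyrimidine run from the start in capitals.
RPL11, chr1:23691767-23691790, plus strand: ctcctggcccataaggccctcggc
RPL28, chr19:55385920-55385943, plus strand: cccctcgccttcCTCTTTCCgtct
RPL14, chr3:40457327-40457350, plus strand: cgggtcttcttcCTTCTCgcctaa
RPLP0, chr12:120201100-120201123, minus strand: cgggcgcgaggcCCTTCTCTCgcc
RPL22, chr1:6199584-6199607, minus strand: ttcgctcacctcCCTTTCTaactc
RPL7A, chr9:133348206-133348229, plus strand: caattccctttcCTTTCTCTCTCC
RPL34, chr4:108620564-108620587, plus strand: ggcttttttcttCCTCTTCCgggg
RPL21, chr13:27251546-27251569, plus strand: ccccgcctctttCCTTTCggccgg
RPL4, chr15:66504844-66504867, minus strand: agcgggagtggtaagcacttcctt

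RPL11 and RPL4, the most abundant members of the set by CPM, have annotated RefSeq starts that begin with A, while the starts of the other 7 printed members begin with C. A run of pyrimidines at an annotated start is a description of these letters, and the read ends in the libraries were not used here.

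**Figure D1:**
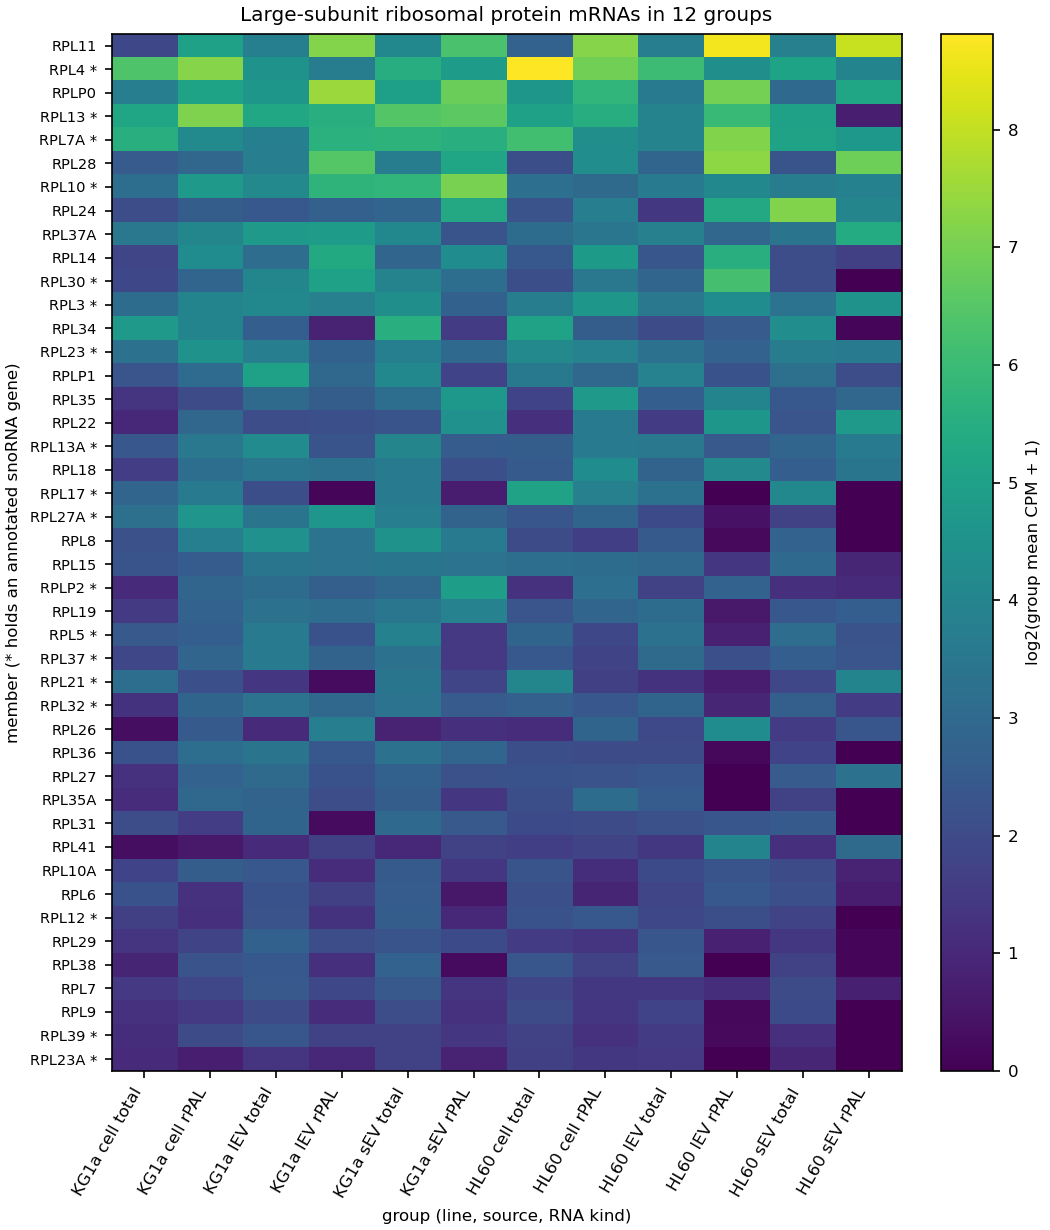
Mean level of each of the 44 members (rows, * marks a host of an annotated snoRNA gene) in the 12 groups (columns), as log2(CPM + 1) of the group mean, ordered by the mean over groups. RPL4 is brightest in HL60 cell total RNA (449 CPM) and RPL11 in HL60 lEV rPAL (405 CPM), and the HL60 lEV and sEV rPAL columns hold the members without any count.

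Levels of the members differed widely among themselves. Averaged over the 12 groups, RPL11 had 94.8 CPM, RPL4 86.7 CPM, RPLP0 54.1 CPM, RPL13 52.0 CPM, RPL7A 43.8 CPM, RPL28 39.0 CPM, RPL10 29.6 CPM and RPL24 22.9 CPM, and the lowest was RPL23A with 1.17 CPM. Per kilobase of annotated exon, merged over all transcripts of a gene, the order was RPL11 (35.6 CPM per kb), RPL7A (19.5), RPL4 (15.4), RPLP0 (13.5) and RPL24 (8.54), and RPL9 was lowest at 0.369. For RPL13 this merged length, 6172 bases, is that of the whole gene, so the order depends on the annotation. RPL11, with RPL5, binds the smallest ribosomal RNA of the large subunit and can inhibit MDM2 as a complex. RPL4 lines the tunnel through which the new protein leaves the ribosome, and RPL7A is an RNA-binding protein of the subunit. RPLP0 is the base of the stalk that recruits translation factors, with RPLP1 and RPLP2 as its arms.

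Summed over the 44 members, KG1a cell total RNA had 335 ± 24.3 CPM (SD, n = 4; range 309.9 to 364) and HL60 cell total RNA 827 ± 74.8 CPM (n = 3; 755 to 904), ranges that do not overlap. In vesicle total RNA the sums were 457 ± 20.04 CPM in KG1a lEV, 652 ± 184 CPM in KG1a sEV, 324 ± 66.1 CPM in HL60 lEV and 455 ± 202 CPM in HL60 sEV (n = 3 each). The rPAL sums were 669 ± 184 CPM in KG1a cells (n = 4), 837 ± 309 in KG1a lEV, 779 ± 171 in KG1a sEV, 689 ± 225 in HL60 cells, 1249 ± 144 in HL60 lEV and 679 ± 613 in HL60 sEV (n = 3 each). The rPAL sum lay above the total sum without overlap in KG1a cells, KG1a lEV and HL60 lEV, where the difference was largest at 1087 to 1362 CPM against 247 to 363 CPM. As a share of protein-coding counts HL60 lEV had the lower mean in rPAL, with 1.24% to 2.20% in rPAL and 2.19% to 4.31% in total RNA, ranges that overlapped. By this share rPAL lay below total RNA without overlap in HL60 cells, at 0.616% to 1.87% against 3.38% to 4.85%. The same held in KG1a sEV, at 0.997% to 1.34% against 1.38% to 1.62%. KG1a cells were higher in rPAL, at 1.93% to 4.15% against 1.58% to 1.69%, and KG1a lEV and HL60 sEV overlapped. In HL60 cells and in both sEV sources the ranges of the summed CPM overlapped. With rRNA left out of the library total the sums moved by over 1.5 times in several groups, to 2850.3 CPM in HL60 lEV rPAL and 2023 CPM in KG1a sEV rPAL, and the ranges in KG1a sEV no longer overlapped, at 1693 to 2296 CPM in rPAL and 699 to 1337 CPM in total RNA. In HL60 sEV rPAL replicate 1 had 1387 CPM and the other 2 had 322 and 328 CPM. Replicate 2 of that group also stood apart, with 47.0% of its counts on protein-coding features, 8.69% and 6.95% in the other 2, and with the 13.004 CPM of erythroid markers, which were at 0 in the others. The part of either in the members' values was not tested.

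**Figure D2:**
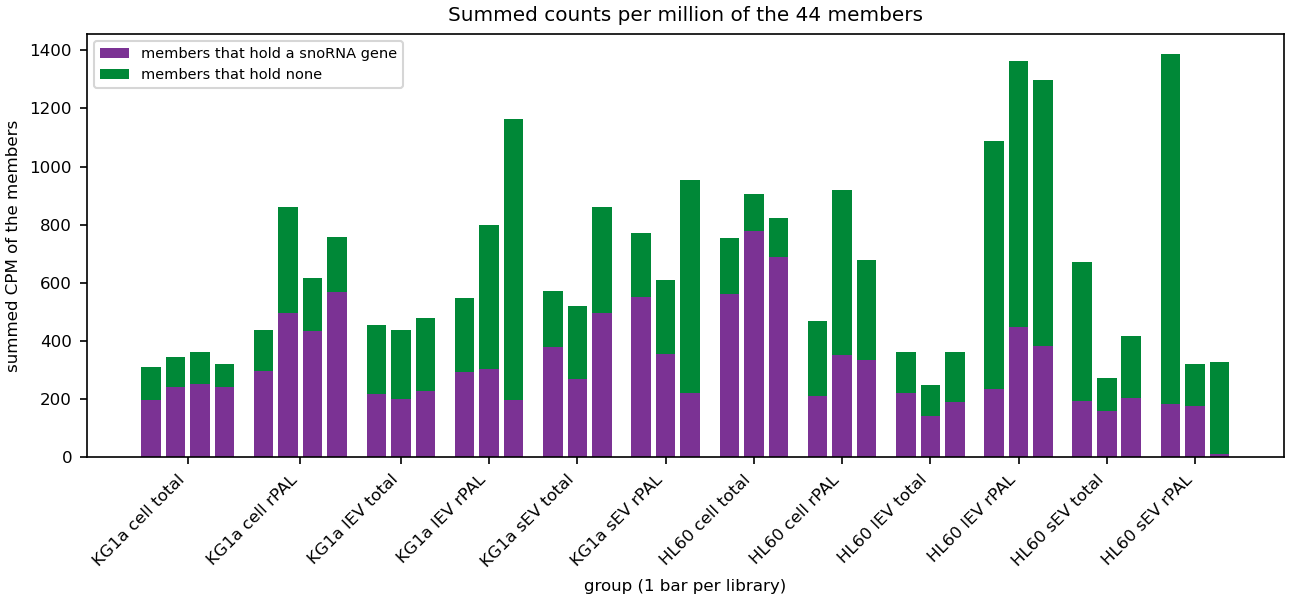
Summed CPM of the 44 members in each library, by group, with the members that hold an annotated snoRNA gene and those that hold none shown apart. In cell total RNA the hosts make 63.5% to 75.6% of the sum in KG1a and 74.3% to 86.0% in HL60, and in HL60 lEV rPAL 21.7% to 32.9%.

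Which members made up the sum also changed. RPL4 alone was 53.8% ± 8.30 (SD, n = 3) of the summed level in HL60 cell total RNA and 24.6% ± 4.23 (n = 4) in KG1a cell total RNA, and 1.62% ± 0.264 (n = 3) in HL60 lEV rPAL. RPL11 was 0.706% ± 0.0913 in HL60 cell total RNA and 32.5% ± 1.19 in HL60 lEV rPAL (n = 3 each). All 44 members had a count in each of the 19 total libraries. In rPAL libraries 10 to 44 members had one, and the fewest were in HL60 sEV replicate 3, which also had the fewest counts of all libraries. The members of HL60 lEV rPAL with no count in any replicate were RPL17, RPL23A, RPL27, RPL35A and RPL38, and HL60 sEV rPAL had 11 such members.

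The first question is which members the pull-down of sialylated RNA holds above or below the total RNA of the same source. In KG1a cells 6 of the 42 members tested rose in rPAL, where 8.89% of all 6592 features tested rose, and 1 fell, where 9.86% of all features fell and 18.8% were called in all. Those that rose were RPL11, RPL14, RPLP2, RPL22, RPL13 and RPL8, and RPL7A fell. In HL60 cells 6 of 44 rose (RPL11, RPL35, RPL22, RPL14, RPL28 and RPL18; 20.6% of all features) and 6 fell (RPL21, RPL34, RPL4, RPL7A, RPL10A and RPL17; 18.0%, with 38.6% called in all). RPL11, RPL14 and RPL22 rose and RPL7A fell in the cells of both lines. The share of members called was therefore not above that of all features in HL60 cells in either direction.

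RPL11 was the member with the largest rise in cells. Its KG1a cell total libraries had 2.46, 3.70, 2.45 and 2.35 CPM, and the rPAL libraries 24.6, 53.7, 24.1 and 24.1 CPM. HL60 cell total libraries had 5.42, 5.51 and 6.5004 CPM, and rPAL libraries 86.2, 211 and 143 CPM. Every rPAL library thus lay far above every total library of its line, with replicate 2 highest in both. The log2 fold change was 3.27 ± 0.52 in KG1a (SE; edgeR quasi-likelihood test, adjusted p = 0.0015) and 4.37 ± 0.43 in HL60 (edgeR, adjusted p = 6.3e-05), and both calls held in every fit that left out 1 library and under each other setting.

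RPL14 and RPL22, both without a snoRNA gene, followed the same direction. RPL14 had 3.12, 2.38, 2.54 and 2.35 CPM in KG1a cell total RNA and 8.98, 29.7, 14.0 and 21.8 CPM in rPAL. In HL60 cells it had 5.85, 3.49 and 3.98 CPM in total RNA against 17.0, 36.8 and 27.4 CPM in rPAL. The groups did not overlap in either line, with log2 fold changes of 2.64 ± 0.58 (edgeR, adjusted p = 0.0064) and 2.35 ± 0.46 (edgeR, adjusted p = 0.0034). RPL22, a heparin-binding protein, rose from a mean of 0.993 ± 0.198 to 6.57 ± 4.71 CPM (SD, n = 4) in KG1a and from 1.33 ± 0.669 to 11.8 ± 5.87 CPM (n = 3) in HL60, with log2 fold changes of 2.31 ± 0.66 and 2.90 ± 0.60 (edgeR, adjusted p = 0.028 and 0.0047). In HL60 both calls were lost without total replicate 2 or 3, and in KG1a that of RPL22 was lost without any 1 total library. RPL22 overlaps AL031847.2 on its own strand and RNF207 on the opposite strand. The strand used in counting is not given in the sources used here.

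RPL7A fell in the cells of both lines. KG1a total libraries had 39.6, 46.6, 55.9 and 43.4 CPM and rPAL libraries 6.01, 29.4, 21.6 and 12.3 CPM. HL60 total libraries had 62.6, 63.3 and 84.2 CPM and rPAL libraries 4.89, 25.5 and 28.8 CPM. All rPAL values were below all total values, with log2 fold changes of -1.73 ± 0.50 and -2.08 ± 0.61 (edgeR, adjusted p = 0.030 and 0.023). The KG1a call was lost without any 1 total library and the HL60 call without total replicate 2 or 3. Its snoRNA SNORD36C had group means of 5.59 CPM in total and 14.1 CPM in rPAL RNA of KG1a cells, and of 5.25 and 4.65 CPM in HL60 cells.

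RPL4 in rPAL lay on opposite sides of total RNA in the cells of the lines, as did RPL17, described below. In KG1a cells it had 61.3, 91.7, 82.5 and 93.9 CPM in total RNA and 151, 120.6, 179 and 139 CPM in rPAL, so that rPAL lay above total without overlap, while the fitted log2 fold change of 0.69 ± 0.44 was not called (edgeR, adjusted p = 0.36). In HL60 cells it had 339.95, 556 and 452 CPM in total RNA and 135, 109 and 119 CPM in rPAL, with a log2 fold change of -2.18 ± 0.31 (edgeR, adjusted p = 0.00065). The rPAL levels of the lines were near each other, and the total levels were not. The difference in the rPAL effect, HL60 minus KG1a, was -2.96 ± 0.64 on the log2 scale (edgeR interaction contrast, adjusted p = 0.024). RPL4 was the only 1 of 44 members for which edgeR called this difference, and DESeq2 called 3. Over all 11632 features edgeR called 1.81%, and 1.18% in the same direction, so the count of 1 member is near that share. The edgeR call of RPL4 was lost in 8 of the 14 fits without 1 library. These were the fits without KG1a cell total replicate 2 or 3 and those without any 1 of the 6 HL60 cell libraries. With KG1a cell rPAL replicates 1 and 4 alone, chosen after the data were seen because replicates 2 and 3 stood apart in their shares of transfer RNA and precursor miRNA, 3 members were called, all lower.

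Beside RPL4, RPL21, RPL34 and RPL17 fell in HL60 cell rPAL. RPL21 had 16.1, 16.1 and 14.3 CPM in total RNA and 3.37, 1.14 and 2.04 CPM in rPAL (log2 fold change -3.10 ± 0.54, edgeR adjusted p = 0.0019). RPL34 had 47.8, 20.9 and 29.2 CPM against 6.41, 4.25 and 4.40 CPM (-2.93 ± 0.46, edgeR adjusted p = 0.0010). RPL17, which sits at the exit of the tunnel, had 28.9, 30.9 and 39.8 CPM against 14.2, 12.6 and 13.2 CPM (-1.58 ± 0.38, edgeR adjusted p = 0.0093). The groups of all 3 genes lay apart, and the calls of RPL4, RPL21, RPL34 and RPL17 held in every fit without 1 library. RPL34 holds no annotated snoRNA gene, whereas RPL4, RPL17 and RPL21 do. In KG1a cells RPL17 was instead higher in rPAL, at 9.51 to 13.04 CPM against 4.37 to 7.73 CPM, which did not pass the test (0.63 ± 0.48, edgeR adjusted p = 0.46).

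Of the remaining calls in cells, RPL13 had 138 ± 77.4 CPM in KG1a cell rPAL and 35.1 ± 9.52 CPM in total RNA (SD, n = 4; log2 fold change 1.92 ± 0.60, edgeR adjusted p = 0.044). The mRNA of the stalk arm RPLP2 had 6.25 ± 1.64 against 1.11 ± 0.265 CPM (2.34 ± 0.63, edgeR adjusted p = 0.020). In HL60 cells RPL28 had 9.27, 20.3 and 27.4 CPM in rPAL and 4.42, 3.29 and 2.17 CPM in total RNA (2.29 ± 0.56, edgeR adjusted p = 0.010), and RPL35, of which rPAL replicate 2 had 64.0 CPM and the others 3.37 and 10.4 CPM, had a log2 fold change of 3.05 ± 0.95 (edgeR, adjusted p = 0.032). Calls in KG1a cells numbered 2 without any 1 of the 4 total libraries, 4 without rPAL replicate 2 and 12 without rPAL replicate 1. The full set gave 7, and RPL11 and RPL14 were called in each of these fits. Over all features the KG1a calls went from 1236 to between 915 and 1035 without a total library. They were 1616 without rPAL replicate 2 and 1536 without rPAL replicate 1. In HL60 cells the 12 calls became 8, 5 and 5 without total replicates 1, 2 and 3. RPL11, RPL4, RPL21, RPL34 and RPL17 were called in each of these fits. Calls over all features there went from 2665 to 1744, 1741 and 1732.

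**Figure D3:**
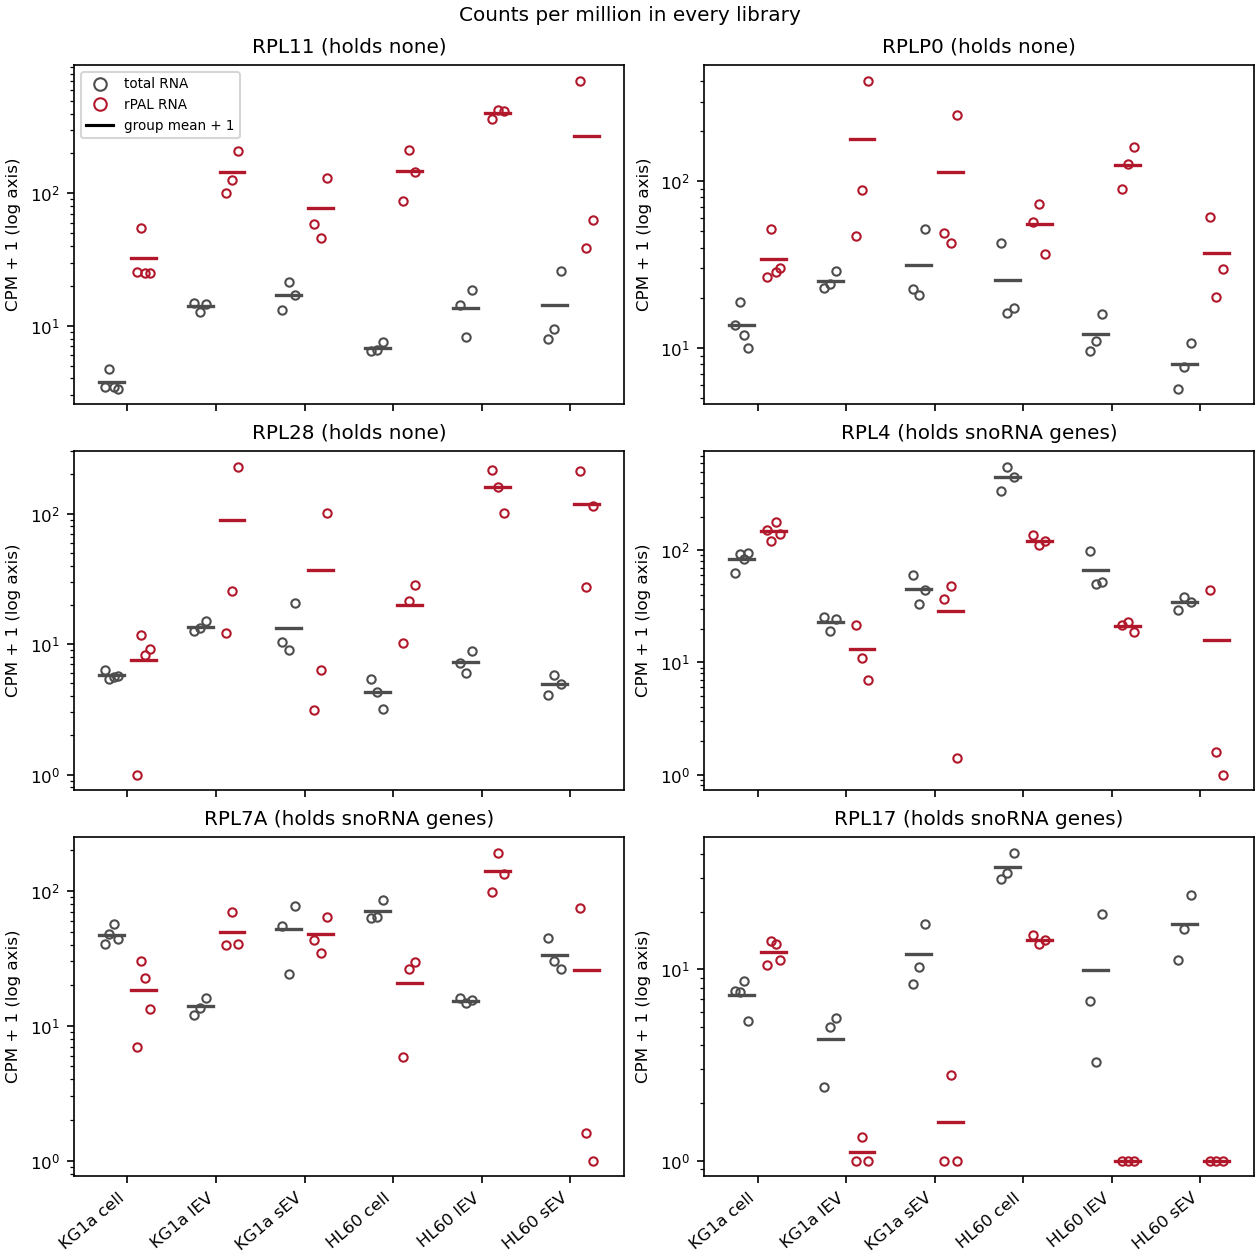
CPM of members named in the text in every library of the 12 groups on a log axis, each point 1 library. RPL11 lies above the total libraries in the rPAL libraries of every source, and RPL4 is highest in the 3 HL60 cell total libraries, at 339.95 to 556 CPM.

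In KG1a lEV 1 of 43 members tested rose (RPL11; 3.16% of all features) and 0 fell (7.07%, with 10.2% called in all), where 6 of 43 had an unadjusted p under 0.05 and DESeq2 called 1 higher and 2 lower. In KG1a sEV 0 of 41 rose (0.480% of all features) and 0 fell (6.13%, with 6.61% called in all) in the edgeR test, with 3 members at an unadjusted p under 0.05 and 3 called lower by DESeq2. In HL60 lEV 2 of 43 rose (RPL11 and RPL28; 12.3% of all features) and 11 fell (18.9%, with 31.3% called in all). In HL60 sEV 34 members had enough counts to be tested, of which 1 rose (RPL28; 2.51% of all features) and 5 fell (16.3%, with 18.8% called in all). A member that passed the count filter only through its total libraries had to be lower in rPAL there.

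RPL11 was again higher in rPAL in all vesicle sources. KG1a lEV had 13.9, 11.6 and 13.7 CPM in total RNA and 100.2, 124 and 207 CPM in rPAL. KG1a sEV had 12.1, 20.3 and 16.1 CPM against 57.3, 44.8 and 129 CPM. Neither source showed any overlap, but only the first passed the test (log2 fold change 3.24 ± 0.96, edgeR adjusted p = 0.043, lost without any 1 of the 3 total libraries; sEV 2.13 ± 1.35, edgeR adjusted p = 0.41). HL60 lEV had 13.2, 7.17 and 17.7 CPM in total RNA and 366, 427 and 421 CPM in rPAL, and HL60 sEV had 6.91, 8.51 and 24.8 CPM against 709, 37.5 and 61.7 CPM. The HL60 lEV values were the most even of the rPAL groups (3.60 ± 0.64, edgeR adjusted p = 0.0085, lost without total replicate 1 or 2), whereas in HL60 sEV replicate 1 stood apart and the difference was not called (4.15 ± 1.39, edgeR adjusted p = 0.074). RPL11 was thus above total RNA without overlap in 6 of 6 sources and called in 4.

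RPL28, a large-subunit protein that budding yeast lacks, and the only member with no pseudogene named after it in the table, rose in all 3 HL60 sources. In HL60 lEV it had 6.12, 4.97 and 7.91 CPM in total RNA and 216, 159 and 99.9 CPM in rPAL (log2 fold change 3.18 ± 0.70, edgeR adjusted p = 0.013). HL60 sEV had 3.09, 4.79 and 3.94 CPM against 212, 26.3 and 114 CPM (4.76 ± 1.17, edgeR adjusted p = 0.029). The rPAL replicates of HL60 sEV were far apart and still lay above all total values. In KG1a the gene was not called in any source, and KG1a lEV rPAL ranged from 11.1 to 228 CPM. Each of the 3 HL60 calls, that in cells included, was lost when 1 total library was left out, whichever it was, and that in sEV also without any 1 rPAL library.

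RPLP0, the base of the stalk, had a higher mean in rPAL in all 6 sources and no overlap with total RNA in 4 of them, but passed the test in none. The clearest separation was in HL60 lEV, with 8.64, 10.02 and 15.02 CPM in total RNA and 89.1, 126 and 159 CPM in rPAL (log2 fold change 2.01 ± 0.69, edgeR adjusted p = 0.056). KG1a lEV rPAL had 45.9, 88.0 and 399 CPM against 22.0, 23.3 and 27.9 CPM in total RNA, replicate 3 being far above the other 2 (2.42 ± 0.99, edgeR adjusted p = 0.13). Pseudogenes named after RPLP0 held 10011 counts beside the gene's own 12354, and how the authors treated reads with several matches is not given in the sources used here.

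RPL7A, low in the rPAL libraries of cells, lay above total RNA in those of lEV. KG1a lEV had 11.0004, 12.6 and 15.2 CPM in total RNA and 38.5, 69.3 and 39.4 CPM in rPAL. HL60 lEV had 15.01, 13.7 and 14.5 CPM in total RNA and 97.0, 192 and 133 CPM in rPAL. Neither difference was called (log2 fold changes of 1.84 ± 0.95 and 1.82 ± 0.68, edgeR adjusted p = 0.25 and 0.076), although no rPAL library overlapped the total libraries. In sEV the values overlapped, and HL60 sEV rPAL had 74.3, 0.591 and 0 CPM. Whether the rPAL effect on RPL7A differs between cells and lEV was not tested.

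Among the members that fell in HL60 lEV rPAL, RPL4 was the most abundant, with 96.8, 48.7 and 51.3 CPM in total RNA and 20.5, 21.7 and 17.7 CPM in rPAL (log2 fold change -3.16 ± 0.69, edgeR adjusted p = 0.013). The other 10 had total means of 1.73 to 8.88 CPM. Of these RPL17, RPL27, RPL35A, RPL38 and RPL23A had no count in rPAL, which makes them at least 41.9-fold, 19.8-fold, 22.8-fold, 20.8-fold and 8.13-fold lower than in total RNA, with a floor of 3 counts over the group. RPL27A was 8.36-fold lower by mean CPM, from 5 counts in rPAL. RPL8, RPL36, RPL9 and RPL39 each had 2 counts in rPAL, under the floor, and 183, 120, 93 and 73 counts in total RNA. In HL60 sEV rPAL all 5 members that fell had no count, and RPL17, RPL8, RPL31, RPL30 and RPL36 were at least 57.2-fold, 19.2-fold, 13.9-fold, 10.7-fold and 7.88-fold lower. RPL17, RPL36 and RPL8, whose protein lies near the peptidyl transferase centre, were called lower in both vesicle kinds of HL60. With at most 2 counts in either rPAL group, these members passed the count filter through total libraries alone. Any call there could only be lower, so its recurrence is not a separate result.

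These vesicle calls in HL60 rested on few libraries. In lEV the 13 calls became 0 without total replicate 1, 0 without total replicate 2 and 2 without total replicate 3. They became 18 to 20 without an rPAL library. Calls over all features in lEV went from 1006 to 202, 207 and 251 without total replicates 1, 2 and 3. Without an rPAL library they were 2313 to 2516. In sEV the 6 calls became 0 in 5 of 6 fits without 1 library and 1 without rPAL replicate 1. Over all features the sEV calls went from 681 to between 149 and 377 in these fits. Without the filter on low counts edgeR called 0 members in either source, with 14 in lEV and 16 in sEV at an unadjusted p under 0.05, and with the replicate number as a block 5 in lEV and 1 in sEV. Without scaling beyond the library total, the median log2 fold change of all features in HL60 lEV moved from 0.08 to 1.54 and that of the members from -1.85 to -0.44, so that 6 members were higher and 10 lower, and the higher share of all calls went from 39.4% to 58.4%. Relative to the median of all features the members stood 1.93 lower with scaling and 1.98 lower without. Of the 44 members, 15 had a count in every HL60 lEV rPAL library, and all 44 in every HL60 lEV total library. Members that passed the filter through total libraries alone had to be lower, so this distance is set in part by the filter. It is not a separate result about the members.

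The second question is how vesicle total RNA differs from the total RNA of the cells. In KG1a lEV 27 of the 42 members tested were higher than in cells, where 23.8% of all 7780 features were higher, and 5 were lower, where 28.5% were lower and 52.3% were called in all. The members' median log2 fold change was 1.26, with -0.01 over all features. HL60 lEV had 15 of 44 higher (12.1% of all features) and 3 lower (15.2%, with 27.3% called in all), with medians of 0.83 and 0.16. In both lines 14 members were higher and 3, RPL4, RPL21 and RPL34, were lower. The largest rises in KG1a were RPLP1 (2.88 ± 0.41), RPLP2 (2.65 ± 0.34), RPL32 (2.56 ± 0.32) and RPL8 (2.45 ± 0.36), log2 fold changes with SE from edgeR at adjusted p values of 1.5e-05 to 5.5e-05.

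RPLP1 had 5.36, 4.11, 4.43 and 2.10 CPM in KG1a cells and 20.1, 35.4 and 40.8 CPM in lEV, and RPL32, a host of SNORA7A, had 1.16, 1.81, 1.51 and 1.43 CPM against 9.42, 10.4 and 8.05 CPM. All lEV libraries lay above all cell libraries for both genes. RPL11 rose in lEV of both lines, from 2.74 ± 0.641 to 13.1 ± 1.28 CPM in KG1a (2.15 ± 0.32, edgeR adjusted p = 6.0e-05) and from 5.81 ± 0.5998 to 12.7 ± 5.28 CPM in HL60 (1.90 ± 0.48, edgeR adjusted p = 0.012). In HL60 the largest rise was that of RPL26, with 1.14, 1.61 and 0.839 CPM in cells and 2.01, 3.07 and 3.55 CPM in lEV (2.05 ± 0.44, edgeR adjusted p = 0.0049). Of the stalk members RPLP2 rose in lEV of both lines, RPLP1 was not called in HL60 lEV (1.21 ± 0.49, edgeR adjusted p = 0.083), and RPLP0 was called in neither.

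RPL4, RPL34 and RPL21 were the members lower in lEV of both lines. RPL4 went from 82.4 ± 14.9 to 22.1 ± 3.39 CPM in KG1a (-2.003 ± 0.364, edgeR adjusted p = 0.00030) and from 449 ± 108 to 65.6 ± 27.0 CPM in HL60 (-1.87 ± 0.60, edgeR adjusted p = 0.034, lost without any 1 cell library or lEV replicate 3). RPL34 had 32.9, 20.9, 31.8 and 17.5 CPM in KG1a cells and 3.80, 5.19 and 6.52 CPM in lEV, and 4.36, 1.61 and 3.55 CPM in HL60 lEV (-2.44 ± 0.41 and -2.49 ± 0.58, edgeR adjusted p = 0.00017 and 0.0076). RPL21 had 12.2, 6.99, 7.26 and 6.30 CPM in KG1a cells and 1.42, 1.21 and 2.24 CPM in lEV, and 1.51, 0.585 and 2.22 CPM in HL60 lEV (-2.48 ± 0.40 and -2.70 ± 0.50, edgeR adjusted p = 0.00012 and 0.0023). No lEV library overlapped a cell library for these 3 genes in either line. In KG1a lEV the other 2 members that were lower were RPL7A (-1.94 ± 0.36, edgeR adjusted p = 0.00035) and RPL17 (-1.05 ± 0.39, edgeR adjusted p = 0.032), both snoRNA hosts. The call of RPL17 was lost without cell replicate 1 or 3 or lEV replicate 1, and its values overlapped.

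**Figure D4:**
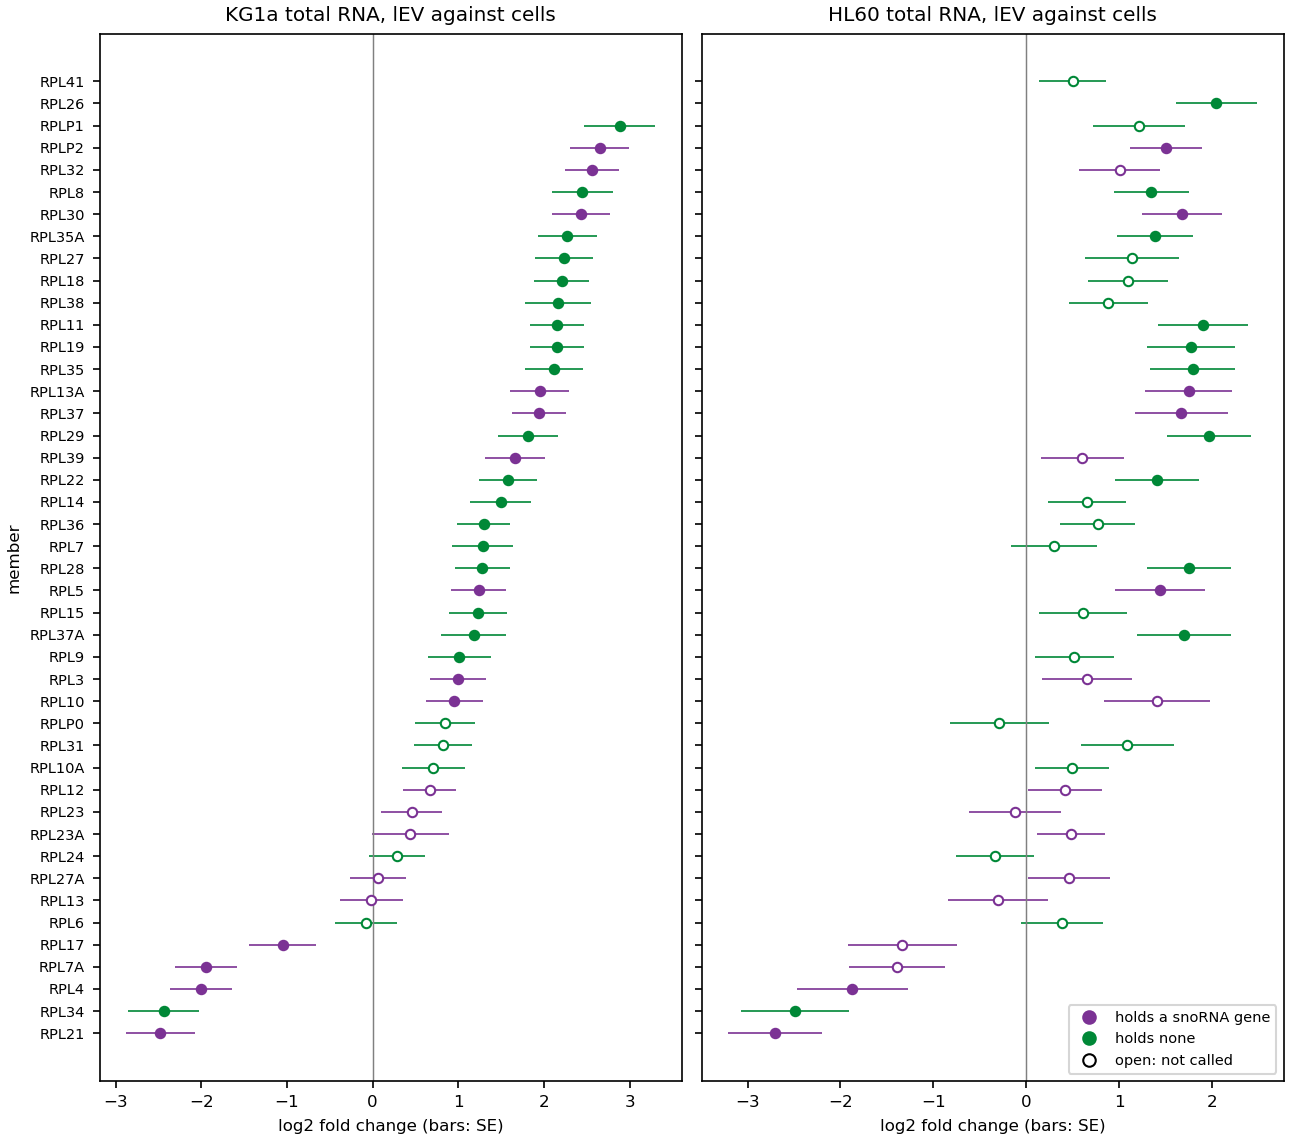
Log2 fold change with SE (x axis) of each tested member (y axis) in total RNA of lEV against cells, with KG1a in the left panel and HL60 in the right. Points are coloured by whether the gene holds an annotated snoRNA gene, and open points were not called. RPL4, RPL21 and RPL34 lie at -1.87 to -2.70 in both lines, apart from the bulk of members above 0.

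In sEV the members moved less. KG1a sEV had 9 of 42 members higher than cells (23.0% of all features) and 2 lower, RPL4 and RPL7A (22.1%, with 45.1% called in all). RPL7A had 54.4, 23.3 and 76.4 CPM in KG1a sEV, overlapping the cells, and its log2 fold change of -1.03 ± 0.40 (edgeR, adjusted p = 0.049) turned to 0.16 without scaling beyond the library total. HL60 sEV had 1 of 44 higher (13.9%) and 4 lower (12.8%, with 26.7% called in all). The median log2 fold change of the members was 0.19 in KG1a and -0.33 in HL60, beside 0.22 and 0.16 over all features. RPL4 was lower in both, with 58.7, 32.0 and 42.8 CPM in KG1a sEV (-1.97 ± 0.41, edgeR adjusted p = 0.0027) and 28.6, 37.3 and 33.9 CPM in HL60 sEV (-4.03 ± 0.39, edgeR adjusted p = 0.00078). In HL60 sEV RPL21 (-2.79 ± 0.55), RPLP0 (-2.03 ± 0.54) and RPL7A (-1.35 ± 0.38) were also lower (edgeR, adjusted p = 0.0072, 0.025 and 0.030). The 1 member called higher there, RPL24, a protein at the bridge between the subunits, had 397 CPM in replicate 1 and 9.83 and 11.6 CPM in the other 2, against 3.42 to 4.07 CPM in cells (4.92 ± 1.38, edgeR adjusted p = 0.029). Without sEV replicate 1, or without any 1 cell library, the call was lost, and without the former 0 members were higher. The same library held 81.1 CPM of T cell markers, 0.719 and 1.35 CPM in the other 2, and the part of this in the RPL24 value was not tested.

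Of the other members listed as known snoRNA hosts, RPL3, RPL5 and RPL13A were called in lEV and RPL23A was not. RPL3, which helps shape the peptidyl transferase centre, had 16.5 ± 1.80 CPM in KG1a lEV and 7.76 ± 1.75 CPM in KG1a cells (1.00 ± 0.33, edgeR adjusted p = 0.019). RPL5, the partner of RPL11, rose in lEV of KG1a (1.24 ± 0.32, edgeR adjusted p = 0.0044) and of HL60 (1.44 ± 0.49, edgeR adjusted p = 0.043). RPL13A, which also acts in silencing of inflammatory mRNAs, rose in both lines as well (1.95 ± 0.34 and 1.75 ± 0.47, edgeR adjusted p = 0.00023 and 0.016). RPL23A, at the exit of the tunnel, had log2 fold changes of 0.44 ± 0.45 in KG1a lEV and 0.48 ± 0.37 in HL60 lEV (edgeR, adjusted p = 0.43 and 0.35). RPL10, also a host, joins the subunit late in its assembly and had 54.6 ± 41.8 CPM in KG1a sEV and 8.06 ± 1.62 CPM in cells (1.65 ± 0.52, edgeR adjusted p = 0.023).

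Counts in these comparisons varied with scaling and with single libraries, except in KG1a lEV, where 29 to 34 members were called without 1 library. Over all features the KG1a lEV calls went from 4067 to between 3109 and 4524. In HL60 lEV the 18 calls became 4 without any 1 of the 3 cell libraries, and RPL26, RPL21 and RPL34 were called in every such fit. Calls over all features went from 1784 to 1025, 1226 and 1059 without cell replicates 1, 2 and 3. In KG1a sEV the 11 calls became 5 without cell replicate 2, 3 or 4 or sEV replicate 2, and 7 without cell replicate 1. Over all features the 3933 calls became 2818 to 4360 in these fits. In HL60 sEV the 5 calls became 1, 1 and 2 without cell replicates 1, 2 and 3 and 12 without sEV replicate 3. Over all features the HL60 sEV calls went from 2018 to 552, 527, 631 and 3981 in these fits. Without scaling beyond the library total, HL60 lEV had 0 members higher and 4 lower, and KG1a sEV had 29 higher and 0 lower, as the median of all features moved from 0.16 to -0.62 and from 0.22 to 1.36. The higher share of all calls then went from 44.3% to 10.9% in HL60 lEV, from 51.1% to 81.2% in KG1a sEV and from 51.9% to 64.1% in HL60 sEV. Relative to the median of all features the members in HL60 lEV stood 0.67 higher with scaling and 0.62 higher without, and in KG1a lEV 1.27 and 1.26 higher. The comparisons within a line share the cell libraries.

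The third question is whether the lines differ. In cell total RNA 24 of 44 members were higher in HL60 than in KG1a, where 18.4% of all 8655 features were higher, and 1, RPL27A, was lower, where 21.5% were lower and 39.9% were called in all. The members' median log2 fold change was 0.79, beside -0.01 over all features. The largest was RPL41, the shortest of these proteins (3.11 ± 0.41, edgeR adjusted p = 5.95e-06). It had 2.14, 1.75 and 2.38 CPM in HL60 and 0.217, 0.247, 0.377 and 0.168 CPM in KG1a. The KG1a values of RPL41 rest on 3, 3, 4 and 2 counts, and its pseudogenes held 1129 counts beside the gene's own 678. RPL4 followed (2.59 ± 0.28, edgeR adjusted p = 6.3e-07), then RPL17 with 28.9 to 39.8 CPM against 4.37 to 7.73 CPM (2.48 ± 0.31, edgeR adjusted p = 3.1e-06) and RPL38, needed in mice for translation of certain Hox mRNAs, with 3.70 to 4.42 CPM against 0.588 to 1.38 CPM (2.29 ± 0.35, edgeR adjusted p = 3.0e-05). None of these 4 genes had overlapping values between the lines. RPL27A had 4.35, 3.56 and 4.33 CPM in HL60 and 9.78, 8.96, 7.54 and 7.72 CPM in KG1a (-0.98 ± 0.29, edgeR adjusted p = 0.011), a call lost without HL60 replicate 1 or 3. With 1 library left out 18 to 23 members were called in place of 25. Over all features the 3456 calls became 2839 to 3400 in these fits.

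In lEV 3 of 44 members, RPL4, RPL26 and RPL17, were higher in HL60 (7.04% of all features) and 0 were lower (9.07%, with 16.1% called in all), with DESeq2 calling 3 higher and 1 lower and 8 members at an unadjusted p under 0.05. RPL4 had 96.8, 48.7 and 51.3 CPM in HL60 lEV and 24.5, 18.2 and 23.6 CPM in KG1a lEV (2.67 ± 0.61, edgeR adjusted p = 0.010). The 3 calls became 1, RPL26, without KG1a lEV total replicate 2 or 3. Calls over all features went from 1002 to 746 and 802 in these fits. Without scaling beyond the library total 0 were higher and 4 lower, as the median of all features moved from 0.04 to -0.90 and the higher share of all calls from 43.7% to 10.98%. In sEV 0 of 43 were higher (0.606% of all features) and 0 lower (0.769%, with 1.38% called in all) in the edgeR test, with 4 members at an unadjusted p under 0.05 and 0 called by DESeq2. Whether the difference between lines itself differs between cells and vesicles was not tested.

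The 18 hosts of annotated snoRNA genes and the 26 other members were set side by side by counts. In rPAL against total RNA of HL60 cells 0 of 18 hosts rose and 4 fell, while 6 of 26 other members rose and 2 fell, with median log2 fold changes of -0.57 and -0.12, where 20.6% of all features rose and 18.0% fell. In KG1a cells 2 of 18 hosts rose and 1 fell, and 4 of 24 other members rose and 0 fell, with medians of 0.92 and 0.78, where 8.89% rose and 9.86% fell. In HL60 lEV 0 of 17 hosts rose and 5 fell, and 2 of 26 others rose and 6 fell (medians -2.54 and -0.97), where 12.3% of all features rose and 18.9% fell. Except for RPL4, all members that fell there had few or no counts in rPAL. They passed the count filter through total libraries alone and could only be called lower. The falls and medians in HL60 lEV therefore do not compare hosts with other members. In KG1a lEV total RNA against cells 9 of 18 hosts rose and 4 fell, and 18 of 24 others rose and 1 fell (medians 0.81 and 1.40), where 23.8% rose and 28.5% fell. The share of the members' summed level held by hosts was 81.3% ± 6.18 in HL60 cell total RNA and 44.2% ± 5.58 in HL60 cell rPAL (SD, n = 3 each), without overlap, and 69.5% ± 4.95 and 67.8% ± 7.30 in KG1a cells (n = 4 each), with overlap. RPL4 makes up most of the host share in HL60 cell total RNA.

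Other genes of translation were read from lists for comparison. Of the small-subunit ribosomal protein mRNAs tested, 21 of 29 rose and 2 fell in KG1a lEV against cells and 12 of 29 rose and 1 fell in HL60 lEV, with medians of 1.73 and 1.02 beside the large-subunit medians of 1.26 and 0.83. Abundant mRNAs outside translation, such as ACTB and GAPDH, also rose in KG1a lEV, 14 of 18 with a median of 1.59, and in HL60 lEV 4 of 19 rose with a median of 0.73. Translation factors and other TOP mRNAs had 10 of 18 higher and 2 lower in KG1a lEV and 2 of 17 higher and 1 lower in HL60 lEV. Noncoding snoRNA host genes went the other way, with 2 of 10 higher and 6 lower in KG1a lEV and 1 of 11 higher and 3 lower in HL60 lEV (medians -1.68 and -1.08). In rPAL of HL60 cells these noncoding hosts had 0 of 11 higher and 5 lower, and small-subunit mRNAs had 5 of 29 higher and 2 lower. In HL60 cells against KG1a cells small-subunit mRNAs had 14 of 29 higher and 1 lower, with a median of 0.62. Mitochondrial large-subunit mRNAs, which are encoded in the nucleus and serve another ribosome, had 1 of 9 higher and 2 lower there. Proteins of the snoRNA particles and ribosome assembly factors had 4 of 14 higher and 1 lower in KG1a lEV and 0 of 13 called in HL60 lEV, and large-subunit protein genes outside the 44 had 2 higher and 1 lower in each, of 6 and 5 tested. No difference between these lists was tested.

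Counts of some members are uncertain because other features share their sequence or position. Pseudogenes named after the 44 genes made 695 features with 65854 counts, against 206332 in the genes themselves. The ratio of pseudogene to gene counts was highest for RPL7 (5.81) and RPL23A (3.37) and was 0.0621 for RPL11, 0.0715 for RPL4 and 0 for RPL28, which has no such pseudogene in the table. Another annotated gene overlaps 26 of the 44, among them ZWILCH with RPL4 and UBE2S with RPL28 on the opposite strand. Reads of such opposite-strand pairs cannot be told apart if counting ignored strand. Some partners lie on the same strand, among them MIR6805 with RPL28, RPL17-C18orf32 with RPL17, AL031847.2 with RPL22 and MIR6850 with RPL8. For these, strand does not tell reads apart. RPL11, RPLP0, RPL7A, RPL14, RPL34 and RPL21 have no overlapping gene in the annotation other than their own snoRNA genes.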

How the data were processed

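Small RNA reads of 38 libraries in 12 groups (2 lines, 3 sources, total or rPAL RNA) were aligned with Bowtie2 to GRCh38 per the submitters' processing notes, and the authors deposited raw read counts per feature. The counting program, strand, treatment of reads with several matches and annotation release are not given in the sources used here. Library totals ran from 2380745 to 15532758 counts.

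CPM was computed from the deposited counts and the library totals. Groups came from the labels. Each comparison was fitted with its own groups in edgeR 4.0.16 (TMM scaling, filterByExpr, robust quasi-likelihood test, limma 3.58.1, R 4.3.3), with Benjamini-Hochberg adjustment over all features tested and a threshold of 0.05. The rPAL effect in cells was compared between lines with an interaction contrast. The pipeline was tested on simulated counts. A group without any count was given a floor of 3 counts, which covers counting error only. Alternatives were RLE scaling, no scaling beyond the library total, no filter, DESeq2 1.42.0, the replicate number as a block, library totals without rRNA and each library left out.

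The 44 members, the gene lists and the tests were chosen with earlier results of these data known. Members named are the 8 with the highest mean level, the 6 such without a snoRNA gene, in each comparison the 4 largest and 4 smallest changes among those called, and known snoRNA hosts and stalk proteins. Members named beyond these complete a short count and were chosen after their values were seen. Gene models and snoRNA sites come from GENCODE 29, promoters from RefSeq.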

Additional observations from a re-analysis of the deposited data

Results flagged for a closer look

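In the groups of 4 libraries, KG1a cell total and KG1a cell rPAL, 1 library stood apart from the others by Dixon's criterion for 5 of 38 combinations of a named member and a group. Chance gives about 1 in 20. These were RPL11 in total RNA (replicate 2 at 3.70 CPM), RPL21 in total RNA (replicate 1 at 12.2 CPM), and RPL11, RPL37A and RPLP0 in rPAL, each with replicate 2 highest, at 53.7, 31.7 and 50.4 CPM. The rPAL effect on RPL4 in cells differed between HL60 and KG1a by -2.96 on the log2 scale in the edgeR interaction contrast.

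For other members every library of one source moved up in rPAL and every library of the other moved down, which was not tested as a difference. The values are differences of log2 enrichment with a pseudocount of 0.5 CPM. Between KG1a cells and KG1a lEV (lEV minus cells) they were 3.28 for RPL7A, -3.27 for RPL13A and -3.44 for RPL17. Between KG1a cells and KG1a sEV they were -2.59 for RPL3, -2.73 for RPL13A and -4.17 for RPL17. RPL7A had 5.04 between HL60 cells and HL60 lEV. RPL30 had -4.43 between HL60 cells and sEV and -6.33 between HL60 lEV and sEV, but it had no count in HL60 sEV rPAL, so that the size of both is set by the pseudocount. Between the lines (HL60 minus KG1a) they were -3.29 for RPL27A in lEV and 2.89 for RPL3 in sEV.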

How the results depend on the processing

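Of 134 calls of a member in a comparison, 58 held in every fit without 1 library and 51 under every setting. RLE scaling kept 127, DESeq2 112, no scaling beyond the library total 104 and no filter on low counts 70. The number of members called, or its split by direction, changed as follows. Without scaling the numbers were 6 in KG1a cell rPAL, 3 in KG1a lEV rPAL, 16 in HL60 lEV rPAL, 29 in KG1a sEV against cells, 4 in HL60 lEV against cells, 5 in HL60 sEV against cells (2 higher and 3 lower, in place of 1 and 4) and 4 between lines in lEV, and RPL7A in KG1a sEV against cells turned from -1.03 to 0.16. RLE scaling gave 1 in KG1a lEV rPAL, lower in place of higher, and 15 in HL60 cell rPAL. Without the filter there were 1, 0, 0 and 0 in rPAL of KG1a cells, KG1a lEV, HL60 lEV and HL60 sEV, 2, 6 and 5 in KG1a sEV, HL60 lEV and HL60 sEV against cells (the last 0 higher and 5 lower), 1 between lines in sEV and 0 in the interaction. DESeq2 gave 3, 3 and 13 in rPAL of KG1a lEV, KG1a sEV and HL60 lEV (the last 1 higher and 12 lower, in place of 2 and 11), 15 and 4 in HL60 lEV and sEV against cells, 4 between lines in lEV and 3 in the interaction, which also had 3 with KG1a cell rPAL replicates 1 and 4 alone. Calls over all features changed with the setting as well. Without scaling they went from 3933 to 5373 in KG1a sEV against cells. In HL60 lEV against cells they stayed near, 1784 and 1782, but those higher went from 790 to 194. Without the filter they went from 599 to 1 in KG1a lEV rPAL and from 1236 to 1523 in KG1a cell rPAL. The member counts are therefore not to be read alone, and the cause was not tested.

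Without 1 library the counts ranged from 2 to 12, 0 to 5 and 0 to 0 in rPAL of KG1a cells, lEV and sEV, 5 to 17, 0 to 20 and 0 to 1 in those of HL60, 29 to 34 and 5 to 11 in KG1a lEV and sEV against cells, 4 to 23 and 1 to 12 in those of HL60, 18 to 23, 1 to 3 and 0 to 0 between lines in cells, lEV and sEV, and 0 to 1 in the interaction. With rRNA left out of the library total the summed CPM was 373 in KG1a cell total, 566 in KG1a lEV total, 1475 in KG1a lEV rPAL, 1016 in KG1a sEV total, 2023 in KG1a sEV rPAL, 958 in HL60 cell total, 2850.3 in HL60 lEV rPAL and 1515 in HL60 sEV rPAL. Without 1 library the sums ranged from 325 to 343, 447 to 467 and 547 to 718 in KG1a cell, lEV and sEV total, 604 to 746, 674 to 981 and 691 to 862 in the rPAL groups, 789 to 863, 304 to 362 and 347 to 546 in HL60 total, and 574 to 799, 1193 to 1330.1 and 325 to 858 in HL60 rPAL.

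Same-numbered replicates were checked for pairing by the correlation of their deviations from the group means. No comparison had every pair above 0.1. The highest values were between lines in vesicle total RNA. In sEV replicates 1, 2 and 3 had 0.0855, 0.298 and 0.348, and in lEV 0.329, 0.0784 and 0.0001. With the replicate block 2, 0, 5 and 1 members were called in rPAL of KG1a cells, KG1a lEV, HL60 lEV and HL60 sEV, and 4 and 2 in KG1a and HL60 sEV against cells; 99 of the 134 calls held. In rPAL libraries, depth limits what can be seen of members with few counts.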
